A study of Mus musculus with 7 samples.

Results

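The 10 genes described here are those of MHC class II antigen presentation, taken by symbol from the deposited gene table of inguinal white adipose tissue, the fat pad of the mouse groin. They are 10 of 55487 genes: the chains of the presenting molecules (H2-Aa, H2-Ab1, H2-Eb1), the invariant chain Cd74, the peptide editor H2-DM (H2-DMa, H2-DMb1, H2-DMb2), its inhibitor H2-O (H2-Oa, H2-Ob) and the transactivator Ciita. All 10 passed the filter on low counts. The mice were NOD/ShiLtJ, which become diabetic through autoimmunity, and their blood glucose lay between 190 and 230 mg/dL at treatment. The 3 sham libraries came from mice given KRBH buffer. The 4 imBAT libraries came from mice given the fraction above 100 kDa of buffer conditioned by brown adipocytes, at 1.5 mg/kg body weight. Injections were subcutaneous for 7 days, and the fat pads were collected between 2 and 8 weeks after them. The labels give neither age, nor the week of each library, nor whether each was a separate mouse, so p-values measure only the spread between these libraries, which may be technical.

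MHC class II molecules are pairs of an alpha and a beta chain that show peptides from the endosome to CD4 T cells. Dendritic cells, B cells and macrophages carry them. In the endoplasmic reticulum the invariant chain blocks the groove; endosomal proteases then trim it, and H2-DM exchanges the remaining fragment for a peptide. H2-O, found mainly in B cells and some dendritic cells, holds H2-DM back. CIITA, a coactivator that does not bind DNA itself, switches these genes on through an array of X and Y boxes upstream of each start. In NOD mice the A pair (H2-Aa with H2-Ab1) is the main genetic risk factor for diabetes, and no E pair reaches the surface because H2-Ea is not properly expressed.

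The boxes that CIITA works through are shown here because the members that share them are the subject of the comparison. RefSeq promoter sequences (GRCm38.p6, 250 bases before to 50 after each start) were at hand for 7 members. The 3 members not in that table are H2-Ab1, Cd74 and Ciita. Capitals mark matches to the X-type run AACNNATGATGC, to the cAMP-response element TGACGTCA and to the Y box GATTGG, the CCAAT sequence read on the other strand. The sequences run 5′ to 3′ on the strand of the gene and stop before the first exon base annotated at that start. H2-Eb1 is chr17:34305747-34305866 (plus strand), H2-Ob chr17:34238783-34238902 (plus), H2-DMb2 chr17:34145116-34145235 (plus) and H2-Aa chr17:34287824-34287943 (minus).
H2-Eb1: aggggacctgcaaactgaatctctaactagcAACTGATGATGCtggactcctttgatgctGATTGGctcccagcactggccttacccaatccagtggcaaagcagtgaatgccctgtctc
H2-Ob: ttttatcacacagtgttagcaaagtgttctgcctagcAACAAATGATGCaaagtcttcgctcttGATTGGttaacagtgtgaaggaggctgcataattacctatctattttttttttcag
H2-DMb2: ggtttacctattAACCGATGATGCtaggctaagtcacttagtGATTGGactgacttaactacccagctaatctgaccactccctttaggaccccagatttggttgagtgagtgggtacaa
H2-Aa: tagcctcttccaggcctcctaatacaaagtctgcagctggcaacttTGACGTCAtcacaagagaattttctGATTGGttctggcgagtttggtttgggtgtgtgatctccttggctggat

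The X-type run was followed by the Y box on the same strand after 17 bases in H2-Eb1, 15 in H2-Ob and 18 in both H2-DMb2 and H2-DMb1. The run is the longest, with at most 2 open letters (N), that these 4 promoters share, so its presence in them is no finding. Searched on both strands of all 32851 promoters of the table, the run was found in 13 (0.0396%). Followed by GATTGG within 30 bases, it was found in those 4 members and in no other gene of 27025. The run was fitted to these 4 promoters, so its rarity in other genes is no finding either. H2-Ab1, Cd74 and Ciita could not be searched. GATTGG alone was common, in 16.1% of promoters, and lay 49 bases before the start of H2-Aa and 44 before that of H2-Oa. TGACGTCA, in 1.79% of promoters, lay 74 bases before the start of H2-Aa. A match is a description of letters, not a measured binding site.

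All 10 members were lower in imBAT than in sham (edgeR quasi-likelihood F test, Benjamini-Hochberg adjusted p = 0.00129 to 0.00418), against 19.3% of all 26393 genes tested that were called lower and 24.3% called higher. The groups did not overlap for any of the 10, where 25.2% of all genes lay lower in imBAT without overlap. For 9 members the fall was at least 1 on the log2 scale, as for 8.84% of all genes. The median log2 fold change was -1.40 over the members and -0.01 over all genes tested. Upper-quartile scaling moved that second median to -0.25 and the calls over all genes from 5084 lower (44.2% of calls) to 8180 lower (63.4%). Relative to the median of all genes, the members lay at -1.87 to -0.99 in the reported fit and at -1.86 to -0.99 with upper-quartile scaling. In a bulk sample, fewer cells of a type and less RNA per cell cannot be told apart.

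**Figure D1:**
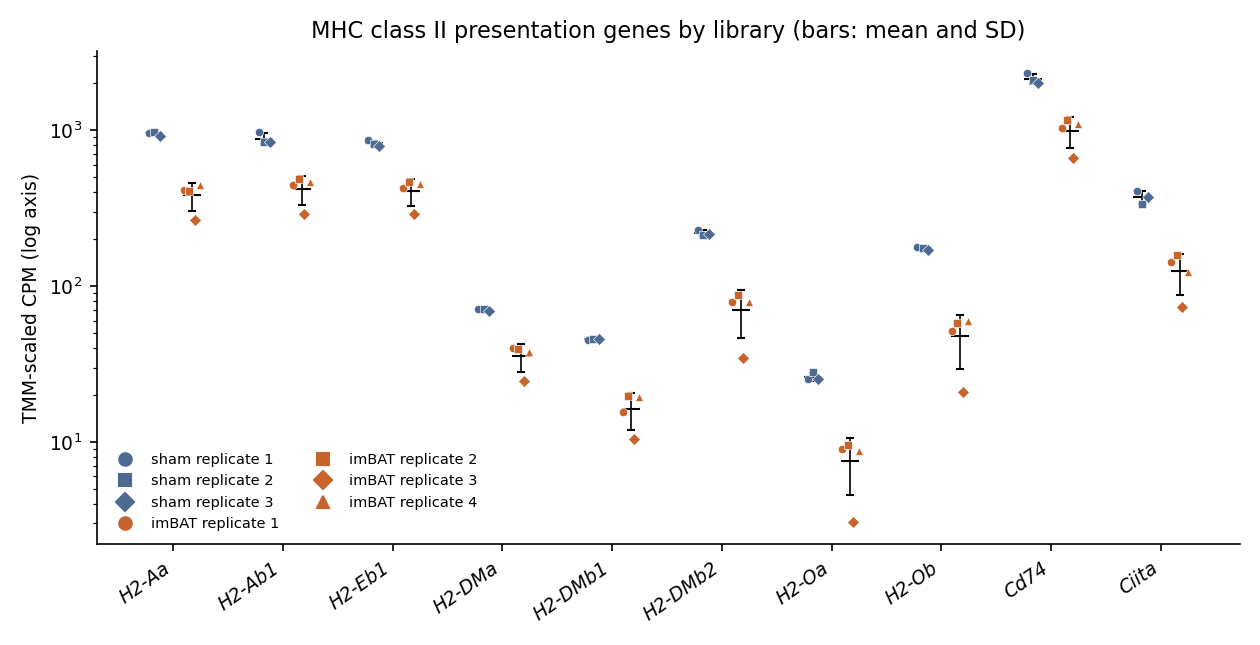
TMM-scaled CPM (log axis) of the 10 members in each of 3 sham and 4 imBAT libraries, with the mean and SD of each group. Every imBAT point lies below every sham point of the same gene, and imBAT replicate 3 is the lowest point for all 10.

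Cd74, the invariant chain, was the most abundant member. Its level was 2322, 2097 and 2009 CPM in sham replicates 1 to 3 and 1030, 1155, 666 and 1097 CPM in imBAT replicates 1 to 4, where CPM are the usual depth-scaled counts with TMM-scaled library totals. The highest imBAT library thus lay well under the lowest sham library. Cd74 fell 2.17-fold (log2 fold change -1.12 ± 0.19, SE, edgeR adjusted p = 0.00289).

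The genes for the A and E chains among the members fell 2.02-fold to 2.49-fold. H2-Aa, the alpha chain of the A pair, stood at 966, 971 and 923 CPM in sham replicates 1 to 3 and at 415, 405, 266 and 442 CPM in imBAT replicates 1 to 4. Its partner H2-Ab1 stood at 968, 841 and 841 CPM in sham and at 447, 489, 292 and 463 CPM in imBAT. H2-Eb1, the beta chain of the E pair, stood at 859, 817 and 790.1 CPM in sham and at 424, 465, 288 and 452 CPM in imBAT. In each of these genes 3 imBAT libraries lay close together and imBAT replicate 3 lay below them. The log2 fold changes were -1.32 ± 0.17 for H2-Aa, -1.06 ± 0.18 for H2-Ab1 and -1.01 ± 0.17 for H2-Eb1 (SE, edgeR adjusted p = 0.00129, 0.00277 and 0.00258). H2-Eb1 overlaps an antisense gene, Gm20513, and without a stated strand setting their reads may be shared.

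H2-DM, the editor that loads peptides, has 1 alpha gene and 2 beta genes, and all of them fell. The alpha chain H2-DMa went from 71.4, 71.7 and 68.7 CPM in sham to 39.9, 39.3, 24.5 and 37.9 CPM in imBAT, a log2 fold change of -0.996 ± 0.163 (adjusted p = 0.00261). The beta chain H2-DMb2 went from 229, 214 and 214 CPM to 79.5, 87.8, 34.7 and 79.1 CPM, which is -1.64 ± 0.27 (adjusted p = 0.00286). The second beta chain, H2-DMb1, went from 45.4, 46.0 and 45.9 CPM to 15.5, 19.7, 10.5 and 19.5 CPM, which is -1.49 ± 0.20 (edgeR adjusted p = 0.0015). The sham libraries of H2-DMb1 lay within 1.01-fold of each other and the imBAT libraries within 1.88-fold. The beta genes are close copies that lie side by side, so reads may be split between them, and H2-DMa overlaps the gene Brd2 at its upstream end.

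H2-O, the inhibitor of H2-DM, had the lowest fitted log2 fold changes among the members. H2-Ob, the beta chain, stood at 178, 175 and 170.3 CPM in sham and at 51.4, 58.3, 21.1 and 59.5 CPM in imBAT, a 3.67-fold fall (log2 fold change -1.87 ± 0.31, adjusted p = 0.00269). H2-Oa, the alpha chain, stood at 25.2, 28.0 and 25.4 CPM in sham and at 9.03, 9.50, 3.07 and 8.77 CPM in imBAT, a 3.44-fold fall (-1.78 ± 0.33, adjusted p = 0.00418). In both genes imBAT replicate 3 lay far below every other imBAT library.

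Ciita, the switch for the other members, also fell. Its level was 408, 339 and 372 CPM in sham and 142, 158, 73.2 and 123 CPM in imBAT (log2 fold change -1.58 ± 0.23, edgeR adjusted p = 0.00194). Ciita has separate promoters for dendritic cells, for B cells and for interferon-treated cells, which counts per gene do not separate.

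**Figure D2:**
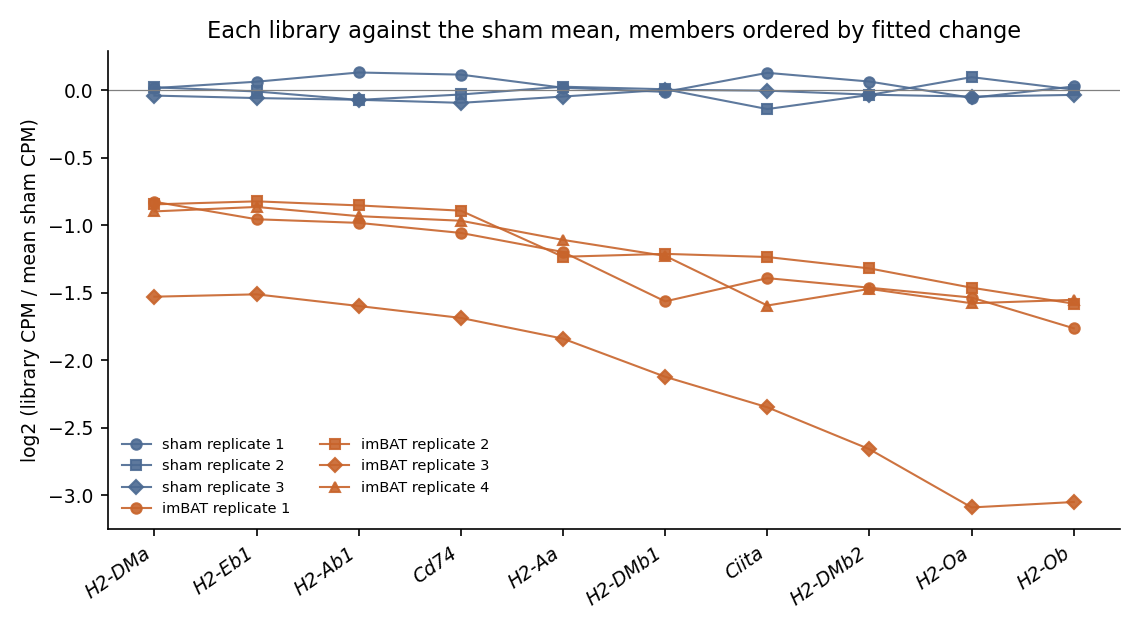
Log2 of the CPM of each library over the mean sham CPM (vertical axis) for the 10 members, ordered by fitted change, with a line for each of 3 sham and 4 imBAT libraries. The sham lines stay between -0.14 and 0.13, while imBAT replicate 3 runs from -1.51 at H2-Eb1 to -3.09 at H2-Oa.

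The members shared their profile over libraries. In sham they stayed within -0.14 to 0.13 of their mean on the log2 scale, and the median over the 10 members was -1.30, -1.22, -1.98 and -1.17 in imBAT replicates 1 to 4. Replicate 3 was the lowest imBAT library for all 10, and replicate 2 the highest for 7. The coefficient of variation among imBAT libraries ran from 19.9% for H2-Eb1 to 39.9% for H2-Oa, and among sham libraries from 0.715% for H2-DMb1 to 9.28% for Ciita. Without imBAT replicate 3 all 10 members were still called lower, with log2 fold changes from -0.91 for H2-DMa to -1.68 for H2-Ob.

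Per kilobase of annotated exon, the 6 highest members kept the same order in all 7 libraries. In sham these were Cd74 at 1276 ± 96.2 CPM per kb (SD, n = 3), H2-Eb1 at 423.0 ± 17.95, H2-Ab1 at 344 ± 28.5, H2-Aa at 251 ± 6.91, H2-DMb2 at 125 ± 4.99 and Ciita at 39.1 ± 3.63. The corresponding imBAT levels were 588 ± 131, 209 ± 41.7, 165 ± 34.6, 101 ± 20.8, 40.2 ± 13.8 and 13.0 ± 3.87 CPM per kb (n = 4). Below them came H2-Ob at 32.4 ± 0.706, H2-DMb1 at 27.2 ± 0.195, H2-DMa at 20.5 ± 0.477 and H2-Oa at 18.6 ± 1.13 CPM per kb in sham. The ranges of neighbouring members did not overlap in sham, although H2-DMa and H2-Oa nearly met. In imBAT H2-DMa at 10.3 ± 2.12, H2-DMb1 at 9.70 ± 2.58 and H2-Ob at 8.84 ± 3.35 CPM per kb were within their spread of each other, with H2-Oa last at 5.40 ± 2.15. The exon length counts every annotated isoform, which lowers the value of genes with many partial transcripts. Reads of NOD mice were set against the assembly of another strain. Any loss of reads may differ between genes, and its bearing on this order was not tested.

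Ratios of counts within a library do not depend on how libraries are scaled, and 12 ratios between single genes were compared by a two-sided exact permutation test. With 3 against 4 libraries the smallest p this test can give is 0.0571, which is 0.0686 after adjustment over the 12, so no ratio could pass 0.05. The groups did not overlap for 10 of the 12. H2-Aa was lower relative to its partner H2-Ab1: the log2 ratio was -0.00, 0.21 and 0.13 in sham and -0.11, -0.27, -0.13 and -0.07 in imBAT, a difference of -0.26 ± 0.08 (SE, exact permutation p = 0.0571). Against H2-Eb1 the difference was -0.31 ± 0.05, and against Cd74 it was -0.20 ± 0.07. These are the smallest of the shifts without overlap.

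Among the loading genes, the log2 ratio of H2-DMa to H2-Oa was 1.50, 1.36 and 1.44 in sham and 2.14, 2.05, 2.99 and 2.11 in imBAT, a difference of 0.89 ± 0.23 that makes the ratio of the editor's alpha chain to the inhibitor's 1.85-fold higher. Without imBAT replicate 3 it was 0.67. H2-DMa to H2-DMb1 differed by 0.51 ± 0.10, again without overlap. H2-DMa fell least of the H2-DM genes. It overlaps Brd2, which had 302 CPM in sham and a log2 fold change of -0.10 ± 0.09. What shared reads add to the ratios of H2-DMa was not tested. In the fit H2-DMb2 at -1.64 ± 0.27 and H2-DMb1 at -1.49 ± 0.20 lay nearer to H2-Oa at -1.78 ± 0.33. No ratio of a beta chain to H2-O was taken, so whether the beta chains shifted as well was not tested. The ratio of both H2-O chains, H2-Oa to H2-Ob, was -2.74 ± 0.09 (SD, n = 3) in sham and -2.66 ± 0.13 (n = 4) in imBAT, and the groups overlapped (difference 0.07 ± 0.08 SE, exact permutation p = 0.40). Relative to Cd74, Ciita was lower by 0.49 ± 0.11, with log2 ratios of -2.86, -2.87, -3.18 and -3.15 in imBAT replicates 1 to 4 against -2.51, -2.63 and -2.43 in sham.

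**Figure D3:**
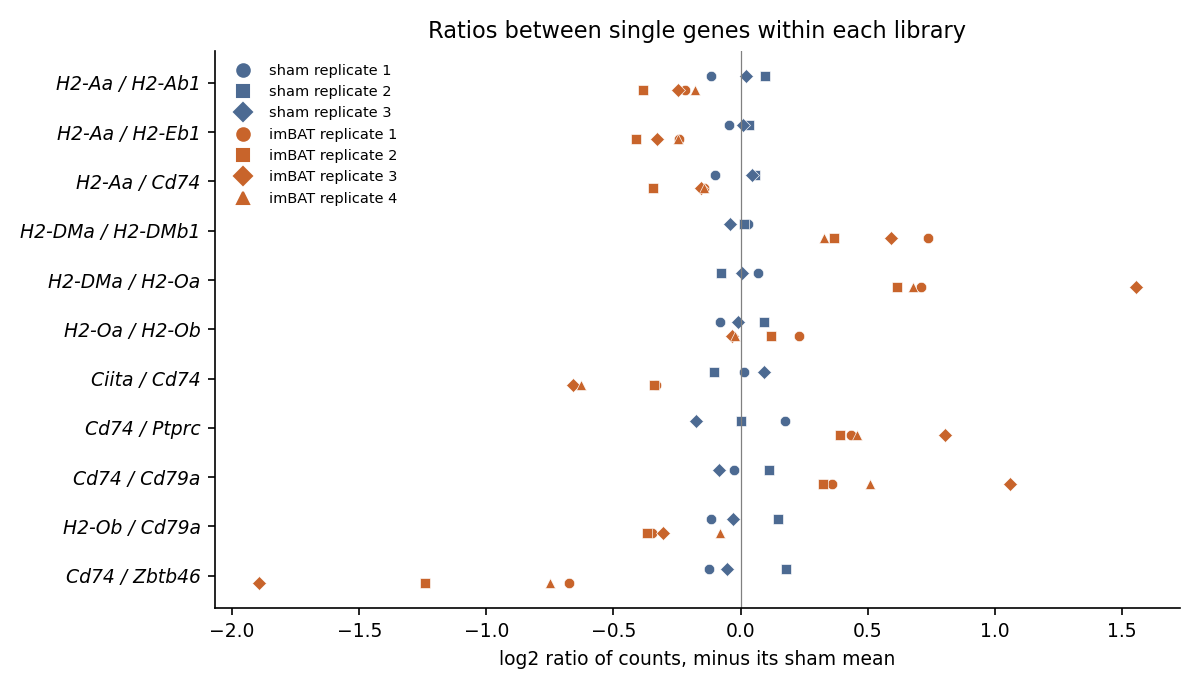
Log2 ratio of counts between single genes in each library, minus the mean of the 3 sham libraries (horizontal axis), for 11 of the 12 ratios, that to Adgre1 being left out for its range. The imBAT points lie clear of the sham points except for H2-Oa / H2-Ob and H2-Ob / Cd79a.

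Against markers of the cells that present antigen, the members took different places. Cd79a, a chain of the B cell receptor complex, went from 263, 216 and 237 CPM in sham to 89.3, 103, 35.5 and 85.9 CPM in imBAT. Cd74 was higher relative to it, by 0.56 ± 0.18 on the log2 scale (0.40 without imBAT replicate 3). Relative to the pan-leukocyte gene Ptprc, Cd74 was higher by 0.52 ± 0.14 (0.43 without that library). Both shifts were without overlap and at the smallest p. Ptprc had the largest fall of the 4 pan-leukocyte genes, whose log2 fold changes ran from -1.60 to -1.02. No ratio to the others was taken, so that shift is shown for Ptprc only. H2-Ob relative to Cd79a was lower by 0.28 ± 0.10 with overlapping groups (exact permutation p = 0.114). Cd79a itself, at -1.61 ± 0.31 in the fit, fell less than most of the 12 B cell markers (-1.85 to -1.55). Ratios to other B cell markers were not taken. Adgre1, which encodes the macrophage antigen F4/80, went the other way, from 11.2, 10.0 and 14.2 CPM in sham to 232, 20.3, 175 and 124 CPM in imBAT. Cd74 per Adgre1 was thus 19.1-fold lower (log2 difference -4.25, and -5.11 without imBAT replicate 2). That size goes with the marker, as Adgre1 had the largest rise of the 12 macrophage markers (3.55 ± 0.71). Csf1r (0.30 ± 0.23), Cd68 (0.52 ± 0.25) and Lyz2 (-0.27 ± 0.24) were not called, and no ratio to them was taken. Zbtb46, a transcription factor of conventional dendritic cells, had 44.5 ± 7.12 CPM (SD, n = 3) in sham and 44.8 ± 10.6 CPM (n = 4) in imBAT. Zbtb46 was not called (edgeR adjusted p = 0.97), and Cd74 per Zbtb46 was 2.20-fold lower. Zbtb46 does not stand for its list of 10 markers, of which 6 fell, 1 rose and 3 were not called. The level of class II per dendritic cell was not tested.

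Whole marker lists moved beside the members. All 12 B cell markers fell (median log2 fold change -1.77), and their summed level was 2210 to 2622 CPM in sham and 353 to 933 CPM in imBAT. Among them Blk, a kinase of B cell receptor signalling, fell by 1.82 ± 0.24, the complement receptor Cr2 by 1.78 ± 0.26, the adaptor Bank1 by 1.79 ± 0.26 and Ms4a1, which encodes CD20, by 1.85 ± 0.27. All 11 T cell markers fell (median -1.52, 1130.2 to 1433 CPM against 169 to 579 CPM), and so did all 4 pan-leukocyte genes (median -1.30, 2894 to 3078 CPM against 636 to 1366 CPM). Of 12 macrophage markers 8 rose and 1, Timd4, fell (median 1.52), with sums of 1227 to 1377 CPM in sham and 956 to 2691 CPM in imBAT, where replicate 2 was the lowest. The scavenger receptors Cd163 and Mrc1 rose by 2.85 ± 0.38 and 2.75 ± 0.38. Of 10 conventional dendritic cell markers 6 fell and 1, Clec10a, rose (median -0.81, 395 to 477 CPM against 179 to 234 CPM). The fallers with the smallest p were Flt3 (log2 fold change -1.71), Itgax (-1.028) and Ccl22 (-2.05). Of 5 plasmacytoid markers 3 fell (median -1.31, 93.3 to 115 CPM against 19.1 to 49.1 CPM). The only measured marker of these cell types without a count in some library was the lymph node chemokine gene Ccl21a. It had 0 to 7 counts per library and was too low to test. The symbol has 2 entries, of which only the first was read, so these counts are no measure of its absence.

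Markers of fat and of lymph node were checked in the same libraries. All 12 white adipocyte markers rose (median 3.11), from a sum of 2345 to 4857 CPM in sham to 13779 to 31774 CPM in imBAT. Each had counts in every library, but some were low in sham. Lep had 7, 43 and 116 counts in sham replicates 1 to 3, which is 0.155, 0.864 and 2.25 CPM. In imBAT replicates 1 to 4 it stood at 332, 184, 263 and 182 CPM. Plin1 went from 169, 104 and 207 CPM in sham to 1481, 1040, 1979 and 1096 CPM in imBAT. The share of fat in each library was not tested. Groin fat also holds a lymph node. Of 6 tested genes of lymph node stroma and venules 4 fell and 1 rose (median -1.24), and their list summed to 776 to 1176 CPM in sham and 294 to 568 CPM in imBAT. Glycam1, a ligand made by lymph node venules, went from 941, 1029 and 679.7 CPM to 316, 232, 96.4 and 295 CPM. In imBAT replicate 3, the lowest library for every member, the B cell, T cell, plasmacytoid and lymph node sums were also the lowest and the adipocyte sum the highest. The part of these cell types in the fall of the members was not tested.

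**Figure D4:**
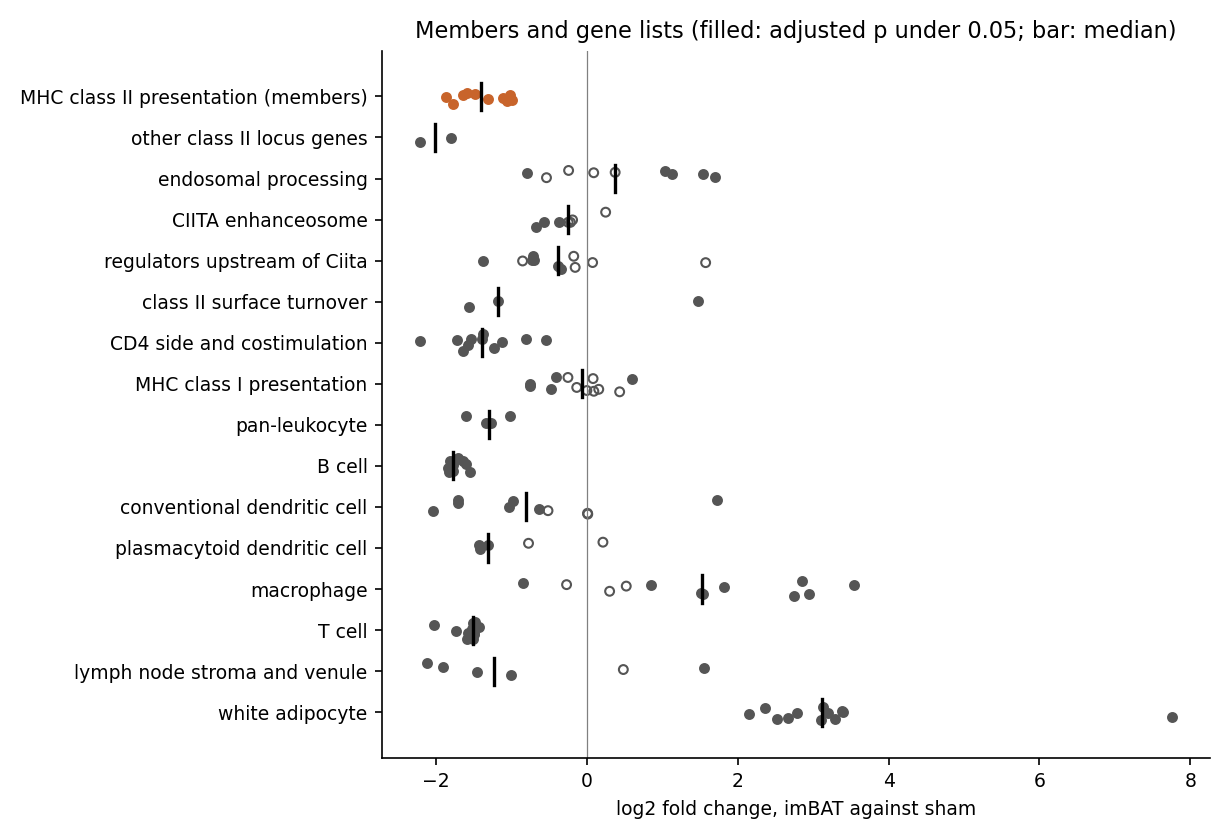
Log2 fold change, imBAT against sham (horizontal axis), of each tested gene of the members and of 15 lists, with filled points for adjusted p under 0.05, open points for the rest and a bar at each list's median. The members' median of -1.40 lies near those of the CD4 side and costimulation (-1.40), plasmacytoid (-1.31), pan-leukocyte (-1.30) and T cell (-1.52) lists. The B cell median (-1.77) is lower and the conventional dendritic cell median (-0.81) higher, while the macrophage and white adipocyte medians are above 0.

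Other genes of the class II pathway were taken from lists. The remaining class II genes of the locus fell as well: H2-Eb2, a second E beta gene, from 53.8 ± 3.92 to 15.4 ± 5.09 CPM (log2 fold change -1.80 ± 0.26), and H2-Ea from 2.80 ± 0.796 to 0.594 ± 0.263 CPM (-2.22 ± 0.39). H2-Ea thus stood below 4 CPM in every library, beside 288 to 859 CPM for H2-Eb1. Of the 9 endosomal processing genes 4 rose, 1 fell and 4 were not called (median 0.37). The cathepsin genes Ctsb, Ctsd and Ctsl rose by 1.70 ± 0.27, 1.54 ± 0.26 and 1.04 ± 0.26, and the thiol reductase Ifi30 fell by 0.79 ± 0.18. Ctss, the protease that makes the final cuts of the invariant chain, stood at 172 ± 7.63 CPM in sham and 118 ± 34.5 CPM in imBAT and was not called (adjusted p = 0.0594).

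Of the 7 genes for factors that assemble on the X and Y boxes, 3 fell and 4 were not called (median -0.25): Creb1 fell by 0.67 ± 0.08, Rfx5 by 0.57 ± 0.13 and Rfxank by 0.37 ± 0.11, while the Y box factor Nfyb at -0.22 ± 0.10 was not called (adjusted p = 0.10). Of 11 tested regulators upstream of Ciita 6 fell and 5 were not called (median -0.38). Irf8, a factor of dendritic and B cells, fell by 1.37 ± 0.21, and the interferon-pathway genes Jak1 and Irf1 by 0.73 ± 0.13 and 0.70 ± 0.13. Ifng, at 0 to 8 counts per library, was too low to test.

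Genes that act on class II at the cell surface split. Marchf1, the ubiquitin ligase that removes class II from the surface of dendritic and B cells, fell by 1.18 ± 0.21, from 60.3 ± 0.484 to 26.6 ± 7.76 CPM. Marchf8, its broadly expressed relative, rose by 1.47 ± 0.15, from 29.8 ± 5.58 to 82.8 ± 8.31 CPM (edgeR adjusted p = 0.000816). Cd83, which opposes Marchf1, fell by 1.57 ± 0.22. All 11 genes of the CD4 T cell side and of costimulation fell (median -1.40), among them Cd86 by 1.12 ± 0.18, Cd40 by 1.53 ± 0.25, Lag3, a class II receptor on T cells, by 0.81 ± 0.14, and Pdcd1lg2 by 1.73 ± 0.30.

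Class I molecules, carried by most cell types, display peptides from inside the cell. Of 12 genes of class I presentation 4 fell, 1 rose and 7 were not called (median -0.07). Nlrc5, the class I counterpart of Ciita, fell by 0.76 ± 0.15, Tap1 by 0.75 ± 0.13 and Psmb8 by 0.47 ± 0.11, and Psmb9 by 0.41 ± 0.10. H2-D1, a class I heavy chain, rose by 0.59 ± 0.14, and H2-K1 stood at 546 ± 34.8 CPM in sham and 578 ± 58.5 CPM in imBAT (adjusted p = 0.59). The difference between the class I and class II lists was not tested.

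Of the members, 8 lie in a stretch of chromosome 17 that runs for 252.3 kb from the start of H2-Oa to the end of H2-Ea and holds genes of other function too (GENCODE M21, GRCm38). The order is H2-Oa (34092340 to 34095234), H2-DMa, H2-DMb2, H2-DMb1, H2-Ob (34238903 to 34254414), H2-Ab1 (34257689 to 34269419), H2-Aa (34282744 to 34287823) and H2-Eb1 (34305867 to 34316674). Ciita lies on chromosome 16 at 10480059 to 10528418, and Cd74 on chromosome 18. Of 12 other tested genes in the interval 8 fell, none rose and 4 were not called (median -0.61). Brd2, a broadly expressed bromodomain gene between H2-Oa and H2-DMa, was at -0.10 ± 0.09 (adjusted p = 0.36). Tap2, between H2-DMb1 and H2-Ob, was at 0.09 ± 0.12 (adjusted p = 0.55), beside H2-Ob at -1.87.

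**Figure D5:**
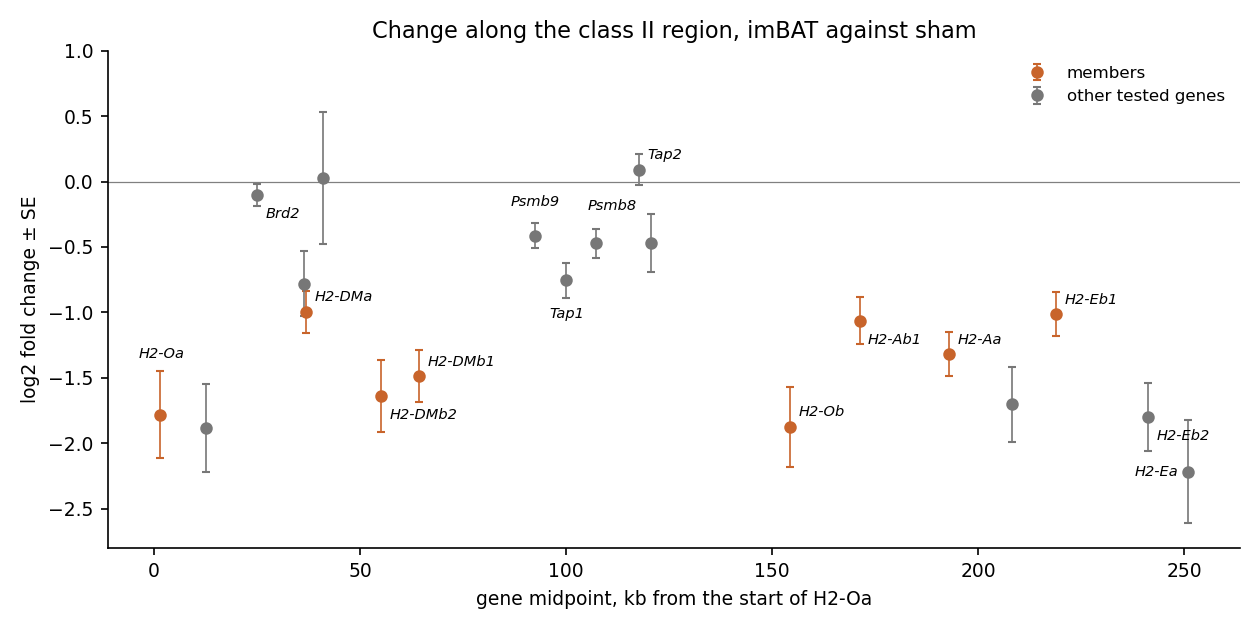
Log2 fold change with SE (vertical axis) of the 20 tested genes from the start of H2-Oa to the end of H2-Ea, by distance of the gene's midpoint from the start of H2-Oa in kb. The 8 members lie between -0.996 and -1.87, and Brd2 and Tap2, between them, lie near 0.

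The 6 other genes whose levels over the 7 libraries were most like the members' were Malt1, AU020206, Gimap1, Irf8, Wdhd1 and Gimap9. Likeness was the root mean square difference from the median member profile in centred log2 CPM, and it was 0.06 for Malt1, a signalling protein below antigen receptors, 0.07 for the non-coding AU020206, and 0.09 for each of the others. The members themselves lay 0.07 (H2-Aa) to 0.37 (H2-Oa and H2-Ob) from that profile. Gimap1 and Gimap9 encode GTPases of lymphocytes and Wdhd1 a protein of DNA replication. Their log2 fold changes were -1.29 for Malt1, -1.28 for Gimap1, -1.37 for Irf8, -1.26 for Wdhd1 and -1.24 for Gimap9.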

How the data were processed

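RNA-seq of 7 libraries was deposited by the authors as 1 table of raw read counts per gene. The aligner was STAR 2.7.9a, on Ensembl release 101, per the labels' protocols. Salmon 1.5.2, featureCounts 2.0.3, limma, edgeR and Subread also appear in the submitters' processing notes, without a role. Whether counting used strand, and how multi-mapping reads were treated, is not given in the sources used. Reads of NOD mice were set against an assembly of another strain, C57BL/6J, and class II genes differ between strains; any loss of reads touches all 7 libraries and its size was not tested.

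Of 55774 rows, 287 were removed as repeats of a gene with the same counts. Library totals were 41025786 to 44983250 counts in sham and 43360208 to 63650016 in imBAT, of which the members took 0.625% to 0.670% and 0.136% to 0.277%. No libraries of a group agreed within sampling noise (chi-square of at least 20.4 per degree of freedom). Groups came from the treatment label, and replicates were numbered in accession order.

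edgeR 4.0.16 in R 4.3.3 was fitted to all genes (robust quasi-likelihood F test, TMM scaling, default filter with a minimum count of 10, group alone, 5 residual degrees of freedom), with Benjamini-Hochberg adjustment over 26393 genes and calls under 0.05. SE is the log2 fold change over the square root of F. Levels are TMM-scaled CPM. Ratios used counts plus 0.5 and scipy 1.17.1. The alternatives tried were upper-quartile and RLE scaling, no filter, a filter of 1 CPM in 3 libraries, DESeq2 1.42.0, limma 3.58.1 voom with quality weights, the number opening each title as a block, each library left out, an adjusted p under 0.10, a ratio prior of 2 and, chosen after seeing the data, counts thinned to the smallest total. The fit was tested on simulated data, where it missed more of the smaller changes than of the larger ones.

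Members, lists and tests were chosen with earlier results of these data known. Named genes are the 10 members, up to 4 per list with the smallest p, the genes of the ratios and the 6 genes most like the members with a mean of at least 10 CPM, clone names and receptor segments excluded. Not all genes of the lists are described, and 1 gene that this rule names is not reported here. The promoter motifs, the genes of the interval, and Ctss, H2-D1, H2-K1, Ifng, Timd4, Ccl21a, Clec10a, Csf1r, Cd68 and Lyz2 were chosen after their values were seen.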

Additional observations from a re-analysis of the deposited data

Results flagged for a closer look

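In a group of 4 libraries a value was singled out when its gap to the nearest other library exceeded 0.829 of the group's range, which chance gives in about 1 of 20 groups. Of 22 imBAT groups (10 members and 12 ratios) 6 were singled out, 5 of them for imBAT replicate 3. That library was low for H2-DMa (24.5 CPM), H2-DMb2 (34.7 CPM) and H2-Oa (3.07 CPM), and high for the log2 ratios of H2-DMa to H2-Oa (2.99) and of Cd74 to Ptprc (1.42). The log2 ratio of H2-Aa to Cd74 was low in imBAT replicate 2 (-1.51, against -1.31 to -1.32 in the other imBAT libraries). These ratios share genes, so the 6 are not independent.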

How the results depend on the processing

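The fall of the 10 members kept its direction and its call in all 160 combinations of member and alternative (16 alternatives, largest adjusted p = 0.0173, for H2-Oa without sham replicate 3). An adjusted p under 0.10 was the reported fit with a looser cut, so its 10 combinations could not lose a call or change direction. The 12 ratios kept their direction in all 96 combinations with a prior count of 2 or a library left out. Counts over all genes moved more. Upper-quartile scaling called 8180 genes lower in place of 5084. With 1 library left out, 7519 to 11403 genes were called in place of 11491, and 3024 to 5097 of them lower; the smallest counts were those without sham replicate 2 (7519, 3024 lower), followed by sham replicate 3 (7795, 3074 lower). All 10 members were called in each of these fits.

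The title numbers 28, 29 and 31 occur in both groups. Deviations from the group means correlated by -0.014, 0.114 and 0.102 in these pairs, and by -0.143 to 0.04 in pairs of unlike number. Sham replicates 1 and 2 thus correlated best with their own number, and sham replicate 3 did not. These values do not settle whether the libraries are paired, and the labels do not say what the number stands for. The reported fit treated the libraries as unpaired. The fit with the title number as a replicate block called 10853 genes and all 10 members, with log2 fold changes from -1.08 for H2-DMa to -2.11 for H2-Ob. The 10 members had 125 counts (H2-Oa in imBAT replicate 3) or more in every library.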
